A study of Drosophila melanogaster with 2 samples.

Results

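The proteasome subunit genes were taken as all gene symbols in the deposited feature list that begin with Prosalpha, Prosbeta, Rpn or Rpt followed by their subunit designation, which selected 47 of 17737 listed genes. Of these, 32 are the canonical subunits and 15 are paralogs whose symbols end in T or R with or without a number, called testis-type here. The canonical genes code for 7 subunits of the alpha ring and 7 of the beta ring of the 20S core, 6 ATPases and 4 other subunits of the base of the 19S cap, and 8 subunits of its lid. The rule uses gene symbols and no expression value, but it was set with earlier results of these data known. The lid subunit Sem1 does not carry an Rpn symbol in the files, and was followed in a list of ubiquitin and proteasome pathway genes instead.

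Single-cell RNA sequencing was done on 2 libraries of adult female Drosophila intestines. Flies of esgts/D30A carried w, esgGal4, tubGAL80[ts] and UASGFP with 1 copy of UAS-ImdD30A, and flies of esgts/+ carried the same driver, repressor and reporter without it. The esg driver acts in intestinal progenitors, and the temperature-sensitive GAL80 holds it off until the flies are warmed. ImdD30A is a form of the immune adaptor Imd that cannot be cleaved. Both groups were virgin females raised at 18 °C and kept for 10 days at 29 °C, and each library pooled 27 guts that were dissociated with elastase at 1 mg/ml. The libraries are called D30A and control from here on. With 1 library per genotype, genotype and library cannot be told apart, no test was run, and every interval below is a 95% interval for counting error only.

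The proteasome degrades proteins tagged with ubiquitin. Its barrel-shaped 20S core holds the proteolytic sites on the beta ring behind a gate formed by the alpha ring, and the 19S cap binds, unfolds and feeds in the substrate. The cap has a base, whose ATPases do the unfolding, and a lid, which removes the ubiquitin chain. The subunits are made in matched amounts for assembly, and in many animals their genes are regulated together by CNC-family transcription factors. Several Drosophila subunits have a second gene that is used mainly in the male germ line.

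After filtering, 4083 D30A cells with a median of 1684 unique molecular identifiers (UMIs, which count captured transcripts) and 3958 control cells with a median of 1235 UMIs were kept. They fell into 25 clusters, named from marker genes as progenitor-like, enteroendocrine-like, enterocyte-like, copper cell-like or cardia-like, with 6 clusters left unnamed. Progenitor-like cells numbered 549 in D30A and 575 in control, enteroendocrine-like cells 153 and 156, enterocyte-like cells 2371 and 2454, and copper cell-like cells 145 and 116. The 10 progenitor markers summed to 2097 counts per 1000000 UMIs (CPM) in D30A progenitors and 1938 CPM in control progenitors, against 85.5 and 56.3 CPM in the enterocytes of the same libraries. Enterocyte clusters 1, 4 and 10 were mostly of 1 library, with 716, 28 and 47 D30A cells against 97, 609 and 235 control cells, and may reflect that library. The libraries shared 132 cell barcodes. The imd transcript itself had 819 UMIs (16.8 CPM) in D30A and 347 UMIs (11.6 CPM) in control. The 40 enterocyte markers, which progenitors should lack, summed to 3776 CPM in D30A progenitors and 8071 CPM in control progenitors, against 112475 and 156728 CPM in enterocytes. In enteroendocrine cells the same list was higher than in progenitors, at 8547 CPM in D30A and 20059 CPM in control. The enteroendocrine markers summed to 1005 CPM in D30A enterocytes and 387 CPM in control enterocytes. Over the mitochondrial limit were 31.9% of D30A barcodes and 3.39% of control barcodes. The part of these differences between the libraries in the results was not tested.

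The canonical subunits together took 100556 UMIs in D30A and 63336 in control, which is 0.206% and 0.212% of all UMIs. All but Prosalpha1 were well sampled. The other 31 had between 1370 (Rpt5) and 5958 UMIs (Prosbeta4) in D30A and between 533 (Rpn12) and 4228 UMIs (Prosbeta1) in control, and no single cell gave more than 2.60% of any subunit's UMIs in a library. The genes lie on all large chromosome arms, 4 on 2L, 10 on 2R, 5 on 3L, 9 on 3R and 4 on X (BDGP6.54). Genes on the opposite strand overlap 15 of the canonical genes, and a gene on the same strand overlaps only Rpt1. Ratios between classes or genotypes were formed for genes with at least 20 UMIs in both groups together, and 31 of the 32 canonical subunits passed in every comparison made.

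Prosalpha1, which codes for the alpha1 subunit of the outer ring, was the exception, with 11 UMIs in D30A and 15 in control. In progenitors it stood at 0.388 CPM (interval 0.126 to 0.906) in D30A and 0.973 CPM (0.391 to 2.004) in control. The gene lies at 2R:7827303-7828678, and a gene that the annotation names Prosalpha1R lies beside it at 2R:7830413-7831771 on the same strand and had 0 UMIs in both libraries. The 2 genes are known as near-identical copies, and reads that match more than 1 gene are usually not counted, so the level of Prosalpha1 is uncertain. Whether such reads were lost here was not tested.

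In progenitor-like cells, which hold the stem cells and enteroblasts of the gut, the summed canonical subunits stood at 1904 CPM (1880 to 1928) in D30A and 2104 CPM (2071 to 2138) in control. Among the gate-forming alpha subunits, Prosalpha2 was at 78.5 CPM in D30A and 77.7 CPM in control, and Prosalpha3 at 92.6 CPM in D30A and 101 CPM in control. Prosalpha4 was at 71.2 CPM in D30A and 73.2 CPM in control, Prosalpha5 at 84.8 CPM in D30A and 81.8 CPM in control, and Prosalpha6 at 75.9 CPM in D30A and 75.5 CPM in control. Prosalpha7 was the alpha subunit whose libraries lay farthest apart, at 89.6 CPM in D30A and 109 CPM in control. The intervals of the ratio spanned 0 on the log2 scale for Prosalpha2, Prosalpha3, Prosalpha4, Prosalpha5 and Prosalpha6, so that these differences are within counting error.

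The beta ring carries the 3 proteolytic subunits, and all 3 were lower in D30A progenitors. Prosbeta1, the caspase-like site, was at 122 CPM in D30A and 158 CPM in control. Prosbeta2, the trypsin-like site, was at 84.7 CPM in D30A and 96.3 CPM in control. Prosbeta5, the chymotrypsin-like site, was at 101 CPM in D30A and 134 CPM in control. The structural subunits Prosbeta3, Prosbeta4 and Prosbeta6 had 81.3, 96.8 and 81.7 CPM in D30A progenitors against 94.2, 104 and 89.1 CPM in control progenitors. Prosbeta7 had 58.7 CPM in D30A and 56.4 CPM in control and was the only beta subunit with the higher value in D30A. For Prosbeta4, Prosbeta6 and Prosbeta7 the intervals of the ratio spanned 0.

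The 6 ATPases of the base did not move as 1 group between the libraries. Rpt1 and Rpt2, which form 1 of the ATPase pairs, had 62.2 and 35.7 CPM in D30A progenitors against 88.1 and 50.4 CPM in control progenitors. Rpt3 and Rpt5 were on the other side, at 58.3 and 25.4 CPM in D30A against 49.6 and 19.9 CPM in control. Rpt4 had 37.7 CPM in D30A and 38.2 CPM in control, and Rpt6 had 39.3 CPM in D30A and 44.7 CPM in control, both within counting error. The 4 other base subunits had the lower value in D30A, with only Rpn1 within counting error. The scaffolds Rpn1 and Rpn2 had 44.0 and 51.9 CPM in D30A progenitors against 46.6 and 61.8 CPM in control progenitors, and the ubiquitin receptors Rpn10 and Rpn13 had 31.1 and 57.3 CPM in D30A against 38.8 and 72.0 CPM in control.

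In the lid, Rpn11, the subunit that cuts off the ubiquitin chain, had 62.1 CPM in D30A progenitors and 70.9 CPM in control progenitors. Its partner Rpn8 had 41.7 CPM in D30A and 32.7 CPM in control. Rpn12 stood farthest apart, at 28.7 CPM (25.9 to 31.8) from 370 UMIs in D30A and 16.0 CPM (13.2 to 19.2) from 115 UMIs in control. The structural lid subunits Rpn3, Rpn5 and Rpn9 had 27.6, 51.1 and 47.9 CPM in D30A against 30.02, 64.3 and 56.8 CPM in control, whereas Rpn6 and Rpn7 had 49.0 and 34.5 CPM in D30A against 39.6 and 32.1 CPM in control. Of the lid subunits, Rpn3 and Rpn7 were within counting error.

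The summed subunit level differed between cell classes, and enteroendocrine-like cells, which secrete peptide hormones, had the highest value in both libraries. In D30A the order was enteroendocrine (2914 CPM, 2821 to 3008), copper cell (2800, 2752 to 2849), enterocyte (2101, 2083 to 2120), cardia (1954, 1897 to 2013) and progenitor (1904, 1880 to 1928). The first pair and the last pair of this order overlap in their intervals. In control the order was enteroendocrine (3419 CPM, 3291 to 3551), copper cell (3126, 3061 to 3193), progenitor (2104, 2071 to 2138), cardia (1931, 1851 to 2015) and enterocyte (1922, 1902 to 1943), with only cardia and enterocyte overlapping. The first place of enteroendocrine cells holds for the pooled class and not for each of its clusters. In D30A, enteroendocrine clusters 17, 22 and 24 had 2515, 2508 and 1582 CPM, below enterocyte cluster 8 with 3035 CPM. In control they had 3086, 3424 and 2317 CPM, and only cluster 22 of them exceeded enterocyte cluster 21 with 3361 CPM. The 1 cardia-like cluster also held enterocyte markers, at 196367 CPM in D30A and 276002 CPM in control. The order of progenitors and enterocytes, which differed between the libraries on pooled CPM, depended on the scale. With cells weighted equally, progenitors had 1816 CPM and enterocytes 2214 CPM in D30A, and progenitors had 1893 CPM and enterocytes 2212 CPM in control. By median-of-ratios scaling the median log2 ratio of progenitors over enterocytes was -0.50 in D30A and -0.42 in control.

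**Figure D1:**
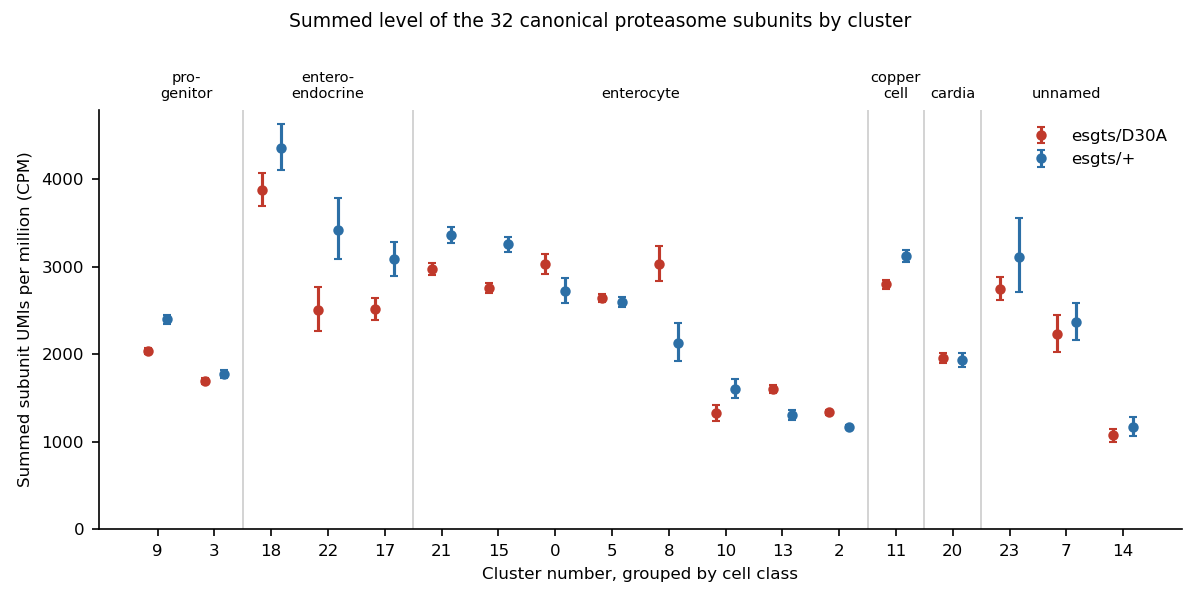
Summed CPM of the 32 canonical subunits (y axis) in the 18 clusters with at least 200 subunit UMIs in each library (x axis), with D30A in red and control in blue and bars for the exact 95% Poisson interval. Enteroendocrine cluster 18 has the highest points, at 3880 CPM in D30A and 4365 CPM in control, and enterocyte clusters extend over a wide range.

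This order depends on what else a cell transcribes. Ribosomal protein genes took 56.5% of UMIs in D30A progenitors and 61.3% in control progenitors, against 17.03% and 22.4% in the enteroendocrine cells of the same libraries. When ribosomal and mitochondrial genes were left out of the total, a scale chosen after the data had been seen, progenitors came first with 4812 CPM in D30A and 5620 CPM in control. Copper cells followed with 4174 CPM in D30A and 4701 CPM in control. Enteroendocrine cells then had 3742 CPM in D30A and 4506 CPM in control, and enterocytes 3044 and 2730 CPM. Which class has the most subunit transcripts can therefore be stated only relative to a named total.

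Within classes the clusters were far apart. Progenitor cluster 9 exceeded progenitor cluster 3 in both libraries, at 2035 CPM against 1692 CPM in D30A (log2 ratio of the sums 0.27, 0.23 to 0.30) and 2399 CPM against 1772 CPM in control (0.44, 0.39 to 0.48). Of the 31 measured subunits, 27 in D30A and 30 in control were higher in cluster 9, whereas the median of all genes stood at 0.00 and 0.04. Cluster 3 has Dl and N among its leading genes and cluster 9 has CG44085 and Pen, and cells of cluster 9 were also deeper, with a median of 32891 UMIs against 12654 UMIs in D30A and 19634 against 8064 UMIs in control. The part of depth in this difference was not tested.

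The enteroendocrine clusters differed in the same manner. Cluster 18, which has Dh31 and Tk among its leading genes, exceeded cluster 17, led by Mip, CCHa2 and AstA, at 3880 against 2515 CPM in D30A (log2 ratio 0.63, 0.53 to 0.73) and at 4365 against 3086 CPM in control (0.50, 0.37 to 0.63). Here 29 of 31 subunits in D30A and 26 of 31 in control were higher in cluster 18. Cells of cluster 18 had a median of 7391 UMIs in D30A and 4882 UMIs in control, against 11111 and 5146 UMIs in cluster 17. The part of depth in this difference was not tested either. The median of all genes was 0.15 in D30A and 0.06 in control.

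Among enterocyte-like cells, which absorb nutrients and secrete digestive enzymes, cluster 2 was low. This cluster has the lysozyme genes LysB, LysC, LysD and LysE among its leading genes and had 1334 CPM in D30A and 1171 CPM in control, against 2645 CPM in D30A and 2594 CPM in control in cluster 5, which is led by the lysosomal mannosidase genes LManV and LManII. All 31 measured subunits were lower in cluster 2 in both libraries, and the median of all genes was lower as well, by a larger step, with a log2 ratio of -1.13 in D30A and -1.56 in control. Relative to the median gene the subunits were thus not low in cluster 2. Cluster 21 stood at the upper end with 2977 CPM in D30A and 3361 CPM in control.

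The subunits moved together over the clusters. Over 41 combinations of cluster and library with at least 30 cells, the log2 CPM of the 20S sum and of the 19S sum had a Pearson r of 0.94 and a Spearman rho of 0.93. Within D30A alone r was 0.94 over 21 clusters, and within control alone it was 0.94 over 20 clusters. The points share libraries, depth and the same total, so the coefficients are a description. Each subunit set against the sum of the others gave a median r of 0.80 over the 31 subunits with at least 500 UMIs, with the highest value for Prosbeta2 (0.94), and the lowest for Rpn12 (0.46), Rpn8 (0.62) and Rpn1 (0.63). By Spearman rho Rpn1 was lowest (0.56), followed by Rpn12 (0.61) and Rpn8 (0.62). These values pool both libraries, and the shares of Rpn12 and Rpn8 differed between the libraries, as given further on. The part of that difference in their low r was not tested. Over all 5287 genes with at least 500 UMIs, the median r with the summed subunits was 0.33. That limit lies below the 2036 UMIs of Rpt5, the least sampled of the 31 subunits.

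**Figure D2:**
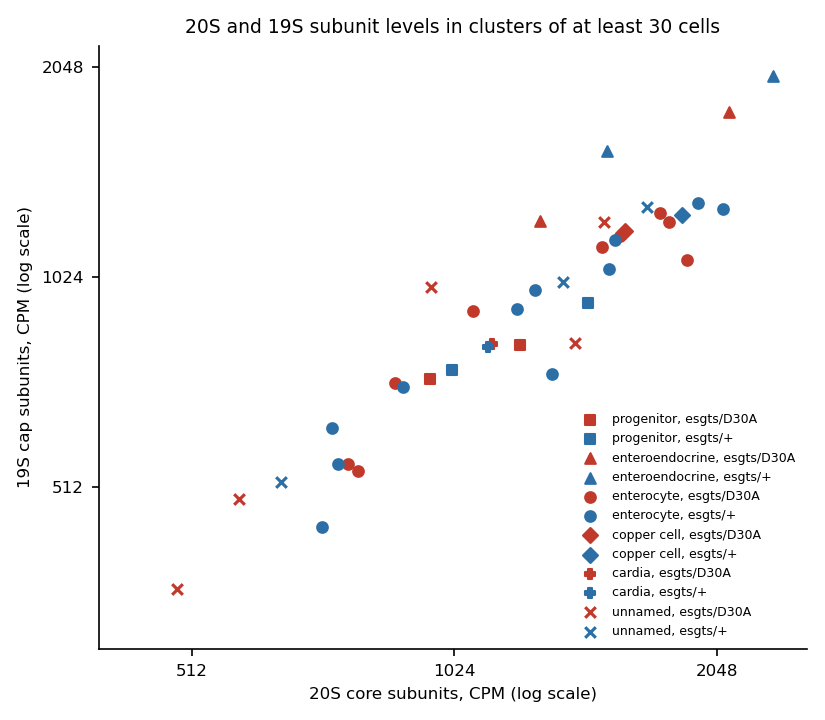
Summed CPM of the 20S core subunits (x axis) against that of the 19S cap subunits (y axis), both on log scales, for 41 clusters of at least 30 cells in a library (red D30A, blue control, shape for cell class). Both sums increase together (r = 0.94), and the 4 enteroendocrine triangles lie at the upper edge of the points, toward the 19S cap.

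The 10 other genes with the highest r over these 41 points had values between 0.87 and 0.92. They were Pfdn5, Pfdn6 and Pfdn4 of the prefoldin complex, which hands unfolded actin and tubulin to the chaperonin, and FK506-bp2, a prolyl isomerase. The list went on with Arpc4 of the actin-nucleating Arp2/3 complex, the stress kinase p38b, the complex I subunit ND-15, Pomp, which guides assembly of the 20S core, Cdc37, a partner of Hsp90, and the G protein subunit Ggamma1. Of the ubiquitin and proteasome pathway, Pomp (r = 0.88) ranked 16 and Ufd1-like (0.83) ranked 43 among 5287 genes, the lid subunit Sem1 had r = 0.75, and the CNC-family factor cnc had r = 0.34 and ranked 2529. The 8 chaperonin genes had values between 0.47 and 0.68.

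Within this common course the balance between core and cap differed in enteroendocrine cells. In D30A, 47.5% of subunit UMIs in enteroendocrine cells fell on 19S genes, against 41.3% in progenitors, and in control 47.9% against 40.5%. The difference was 6.24 percentage points (4.53 to 7.95) in D30A and 7.34 points (5.29 to 9.39) in control. The share does not depend on the total used for scaling, but its size depended on the cells and counts used. The difference was 1.21 points in D30A and 3.95 points in control with classes from single transcripts, and 4.19 and 1.59 points with thinned cells. It was compared after the levels had been seen, and so were the shares of single subunits given further on. Progenitors and enterocytes had 41.3% and 41.6% in D30A and 40.5% and 39.9% in control, and the log2 ratio of these shares was -0.01 (-0.05 to 0.02) in D30A and 0.02 (-0.02 to 0.07) in control.

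The shift was present in each enteroendocrine cluster with at least 200 subunit UMIs. The 20S share was between 50.6% and 54.5% in the 3 such clusters of D30A and between 49.6% and 54.5% in the 4 of control. In the 17 other clusters of control it was between 55.4% and 64.8%, with no overlap. In the 18 other clusters of D30A it was between 49.3% and 63.6%, and 4 of them were under 55%, among them unnamed cluster 16 with the lowest value and enterocyte cluster 1, so the groups overlap in D30A.

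By gene, all 31 measured subunits were above 0 on the log2 scale of CPM ratios in enteroendocrine over progenitor cells in both libraries, but the 19S genes were higher. Of all measured genes, 5353 of 7492 were above 0 in D30A and 5023 of 6737 in control. The direction belongs to the CPM scale: the median over the subunits was 0.59 in D30A and 0.61 in control by CPM, -0.093 and -0.19 by median-of-ratios scaling, and -0.39 and -0.41 without ribosomal and mitochondrial genes in the total. Of the 18 cap genes, 14 exceeded 1.5-fold in D30A and 14 in control, and 13 did so in both, whereas 2 of 13 core genes did so in D30A, 4 in control and 2 in both. Over all genes 53.3% were higher by 1.5-fold in D30A and 57.3% in control, so that the subunits as a whole, with 16 and 18 of 31, were near that background. None was lower by 1.5-fold, where 16.6% and 14.5% of all genes were. The median log2 ratio of the cap genes was 0.77 in D30A and 1.05 in control, that of the core genes 0.43 and 0.39, and that of all genes 0.67 and 0.79.

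**Figure D3:**
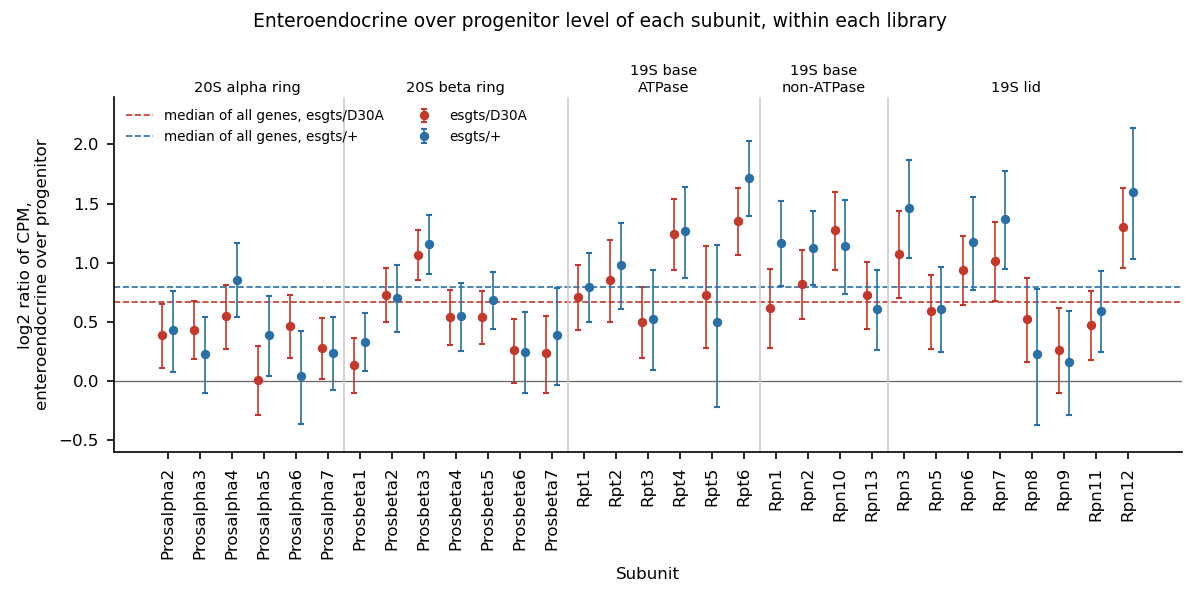
Log2 ratio of CPM in enteroendocrine over progenitor cells (y axis) for 31 subunits ordered by their place in the complex (x axis), in D30A (red) and control (blue), with exact 95% intervals and the median of all genes as dashed lines. Most 20S genes lie below the dashed lines, and Rpt6, Rpt4, Rpn10, Rpn3, Rpn7 and Rpn12 lie above them. On a total without ribosomal and mitochondrial genes the median of the subunits is below 0 (-0.39 in D30A and -0.41 in control).

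The ATPase Rpt6 had the largest difference. It had 100 CPM (83.7 to 119) in D30A enteroendocrine cells against 39.3 CPM in D30A progenitors, and 147 CPM (121 to 176) in control enteroendocrine cells against 44.7 CPM in control progenitors, which are log2 ratios of 1.35 (1.06 to 1.63) and 1.71 (1.39 to 2.02). Rpn12 followed with 1.30 (0.95 to 1.64) in D30A and 1.60 (1.03 to 2.14) in control. The ATPase Rpt4 had 1.25 in D30A and 1.26 in control, the ubiquitin receptor Rpn10 1.28 and 1.14, and the lid subunits Rpn3 and Rpn7 1.08 and 1.02 in D30A and 1.47 and 1.37 in control. In the core only Prosbeta3 exceeded a log2 ratio of 1 in both libraries, at 1.07 (0.85 to 1.28) in D30A and 1.16 (0.90 to 1.41) in control. At the other end, Prosalpha5 had 85.5 CPM in D30A enteroendocrine cells against 84.8 CPM in D30A progenitors, and Prosalpha6 had 77.8 CPM in control enteroendocrine cells against 75.5 CPM in control progenitors. Rpn9 of the cap was also within counting error in both libraries, at 0.26 (-0.10 to 0.61) and 0.17 (-0.29 to 0.59). Markers of other cell types also moved with this comparison. The 4 neuron genes summed to 1353 CPM in D30A enteroendocrine cells and 1442 CPM in control enteroendocrine cells, against 43.8 and 37.5 CPM in progenitors. The 6 fat body markers summed to 192 and 140 CPM against 2.48 and 1.95 CPM, with 5 of the 6 at 0 in D30A enteroendocrine cells. The 8 visceral muscle markers summed to 35.0 and 91.8 CPM against 25.7 and 19.9 CPM. The part of these cell types in the comparison was not tested.

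Against enterocytes, enteroendocrine cells had 11 subunits over 1.5-fold higher in D30A and 25 in control, where 60.6% and 69.9% of all genes were. A step of that size downward was not found for any subunit, where 15.3% and 10.7% of all genes had one. The cap again led the core, with 10 of 18 cap genes past 1.5-fold in D30A and 16 in control, against 1 and 9 of 13 core genes. Cap and core both lay below the median gene. The median log2 ratio was 0.62 in D30A and 1.08 in control for the cap, and 0.31 and 0.67 for the core. For all genes it was 0.92 and 1.27. In progenitors over enterocytes, 0 subunits were higher and 2 lower in D30A (42.7% and 29.5% of all genes), namely Rpt6 and Rpn3, and 4 were higher and 0 lower in control (49.1% and 25.2%), namely Rpn8, Rpt3, Prosalpha7 and Rpn1. By median-of-ratios scaling the subunit medians against enterocytes were below 0 for enteroendocrine cells, at -0.43 in D30A and -0.42 in control.

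The pathway list followed for comparison held 20 genes found in the files. In enteroendocrine over progenitor cells 13 of them exceeded 1.5-fold in D30A and 15 in control, and 1 was lower by 1.5-fold in each. Of all genes 53.3% in D30A and 57.3% in control were higher, and 16.6% and 14.5% were lower. These counts are by CPM, and another total shifts every ratio of the comparison by the same step. Among the 4 highest in both libraries were the ubiquitin gene Ubi-p63E, with 683 against 164 CPM in D30A and 578 against 187 CPM in control, and the lid subunit Sem1, with 172 against 45.2 CPM in D30A and 159 against 46.7 CPM in control. The low gene was REG, an alternative cap of the 20S core found in the nucleus, with 70.7 CPM in D30A enteroendocrine cells against 155 CPM in D30A progenitors and 81.6 against 124 CPM in control. The factor cnc had 452 against 224 CPM in D30A and 491 against 209 CPM in control. The chaperonin genes ran the opposite way, with all 8 lower in enteroendocrine cells of both libraries and medians of -0.69 in D30A and -0.56 in control.

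In D30A over control the subunits sat below the median gene in each class. Their median log2 ratio was -0.12 in progenitors, where the median of all genes was 0.13. It was -0.21 against -0.01 in enteroendocrine cells, 0.15 against 0.41 in enterocytes, and -0.10 against 0.19 in copper cells. Relative to the median gene this is -0.26, -0.20, -0.26 and -0.29. The ribosomal protein genes also sat below it, by -0.26, -0.42, -0.46 and -0.36, and mitochondrial genes took more of all UMIs in D30A, with 3.95% in D30A progenitors against 1.30% in control progenitors. In enterocytes the sign of the median depended on the scale, since it was 0.15 by CPM, -0.26 by median-of-ratios scaling and -0.013 when cells were weighted equally. The mix of the 11 pooled enterocyte clusters also differed between the libraries. Cluster 2, which was low in subunit CPM, held 7305795 of 23465415 enterocyte UMIs in D30A and 7752307 of 17062981 in control. The part of this mix in the enterocyte ratios was not tested.

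Few subunits passed 1.5-fold between the libraries. The shares of all genes, here and between classes, include genes with as few as 20 UMIs. Ratios of such genes have a wider counting error than those of the better sampled subunits, and its part in the gap was not tested. In progenitors 1 of 31 (Rpn12) was higher and 0 lower, where 20.2% of all genes were higher and 6.47% lower. In enteroendocrine cells 1 was higher (Rpn8) and 3 lower (Rpt1, Rpt2 and Rpn1), against 16% and 12.7% of all genes. The enteroendocrine counts were unstable, with 0 to 2 higher and 0 to 7 lower over the alternatives. In enterocytes 3 were higher (Rpn12, Rpn8 and Rpt3) and 0 lower, against 37.3% and 2.35%. In copper cells 1 was higher (Rpn12) and 0 lower, against 26% and 5.9%.

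**Figure D4:**
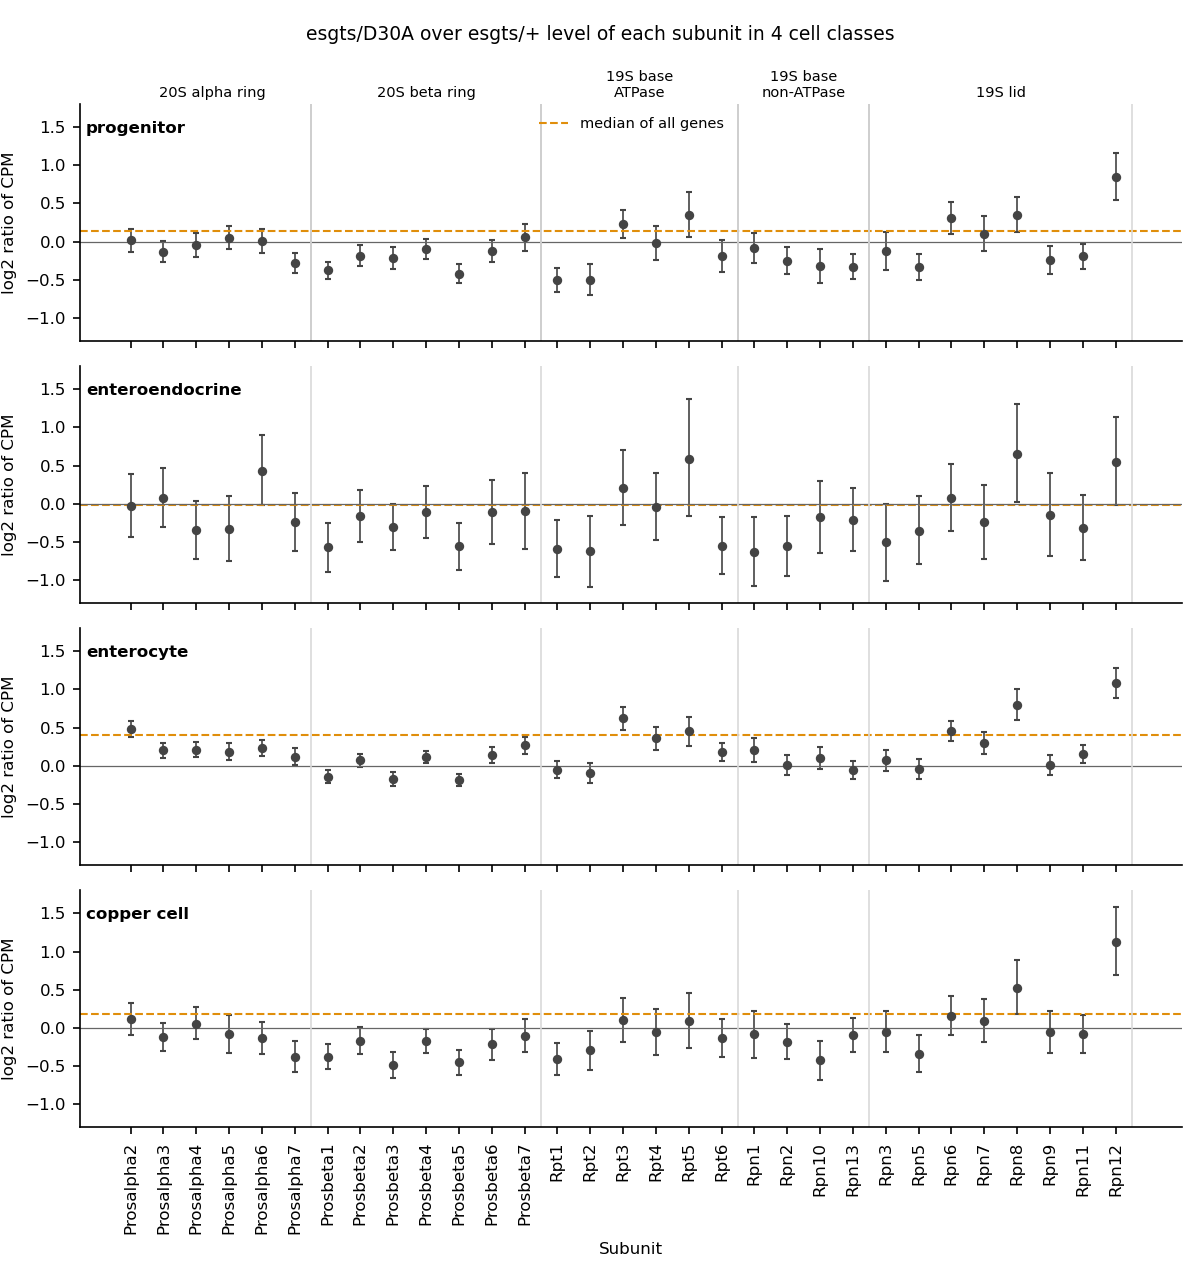
Log2 ratio of CPM in D30A over control (y axis) for 31 subunits ordered by their place in the complex (x axis), in progenitor, enteroendocrine, enterocyte and copper cells from top to bottom, with exact 95% intervals and the median of all genes as a dashed line. Most subunits lie below the dashed line (in enterocytes their median is 0.15 by CPM and -0.26 by median-of-ratios scaling), and Rpn12 and Rpn8 stand above it in each panel, at 0.85 and 0.35 in progenitors.

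Rpn12 was the highest subunit in D30A over control in progenitors, enterocytes and copper cells. It codes for a lid subunit, known in yeast as the last to join the lid, and lies at 3L:16583028-16584022 on the plus strand with no overlapping gene. In enterocytes it had 36.3 CPM (33.9 to 38.8) from 852 UMIs in D30A and 17.2 CPM (15.3 to 19.3) from 293 UMIs in control, and in copper cells 44.3 CPM from 205 UMIs in D30A and 20.3 CPM from 56 UMIs in control. In enteroendocrine cells it had 70.7 CPM from 91 UMIs in D30A and 48.5 CPM from 38 UMIs in control. The log2 ratios were 0.85 (0.54 to 1.16) in progenitors, 1.08 (0.89 to 1.28) in enterocytes and 1.12 (0.69 to 1.58) in copper cells, whereas the interval of 0.55 in enteroendocrine cells spanned 0 (-0.02 to 1.13).

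The next highest subunits were not all the same in every class, though Rpn8 was among them in progenitors, enterocytes and copper cells. In progenitors they were the ATPase Rpt5 at 0.35 (0.07 to 0.65) and Rpn8 at 0.35 (0.13 to 0.58). In enterocytes they were Rpn8 at 0.80 (0.60 to 1.00), with 29.7 CPM in D30A and 17.1 CPM in control, and the ATPase Rpt3 at 0.62 (0.47 to 0.77). In copper cells they were Rpn8 at 0.52 (0.18 to 0.88) and Rpn6 at 0.16 (-0.10 to 0.42). In enteroendocrine cells only 14 subunits had 200 UMIs, and the highest of them were Prosalpha3 at 0.08, Prosalpha2 at -0.03 and Prosbeta4 at -0.11, all within counting error. Below that limit Rpn8 had the highest ratio of all measured subunits there, at 0.65. It had 59.9 CPM from 77 UMIs in D30A and 38.3 CPM from 30 UMIs in control.

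Beta ring subunits were among the lowest ratios in every class, with Prosbeta5 in each. In progenitors these were Rpt1 at -0.50 (-0.66 to -0.35), Rpt2 at -0.50 (-0.70 to -0.30) and Prosbeta5 at -0.42 (-0.54 to -0.30). In enteroendocrine cells, among subunits with 200 UMIs, they were Rpt1 at -0.59 (-0.96 to -0.22), Prosbeta1 at -0.57 (-0.89 to -0.25) and Prosbeta5 at -0.56 (-0.87 to -0.25). Below that limit Rpn1 at -0.63 and Rpt2 at -0.62 were lower still. In enterocytes they were Prosbeta5 at -0.19 (-0.27 to -0.10), Prosbeta3 at -0.17 (-0.26 to -0.08) and Prosbeta1 at -0.14 (-0.23 to -0.06). In copper cells they were Prosbeta3 at -0.49 (-0.66 to -0.31), Prosbeta5 at -0.45 (-0.62 to -0.28) and the ubiquitin receptor Rpn10 at -0.42 (-0.68 to -0.17). As a group, the beta ring had the lowest median of the parts only in copper cells. Its median was -0.18 in progenitors, -0.16 in enteroendocrine cells, 0.071 in enterocytes and -0.22 in copper cells. That of the 4 other base subunits was -0.28, -0.38, 0.057 and -0.14 in the same order.

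As shares of all subunit UMIs, which do not depend on the scaling, 18 of 31 subunits had 1 direction in all 4 classes, with 10 higher and 8 lower in D30A. Only 4 of these had intervals off 0 in every class. Rpn12 made up 1.51% of subunit UMIs in D30A progenitors and 0.759% in control progenitors, and its log2 ratio of shares was 0.99 in progenitors, 0.78 in enteroendocrine cells, 0.95 in enterocytes and 1.28 in copper cells. Rpn8, at 2R:24400028-24404527 with Slik overlapping on the other strand, had ratios of 0.50, 0.88, 0.67 and 0.68 in the same order. Prosbeta5, at 2R:10819978-10821178 with Lsm10 overlapping on the other strand, made up 5.28% in D30A progenitors and 6.39% in control progenitors and had ratios of -0.27, -0.33, -0.31 and -0.29. In enterocytes that ratio was smaller with cells weighted equally (-0.15) and near 0 with thinned cells (-0.035). Prosbeta1 had ratios of -0.23, -0.34, -0.27 and -0.22. All classes come from the same 2 libraries and are not independent of each other, so that a difference between the libraries as a whole cannot be told apart from the genotype.

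**Figure D5:**
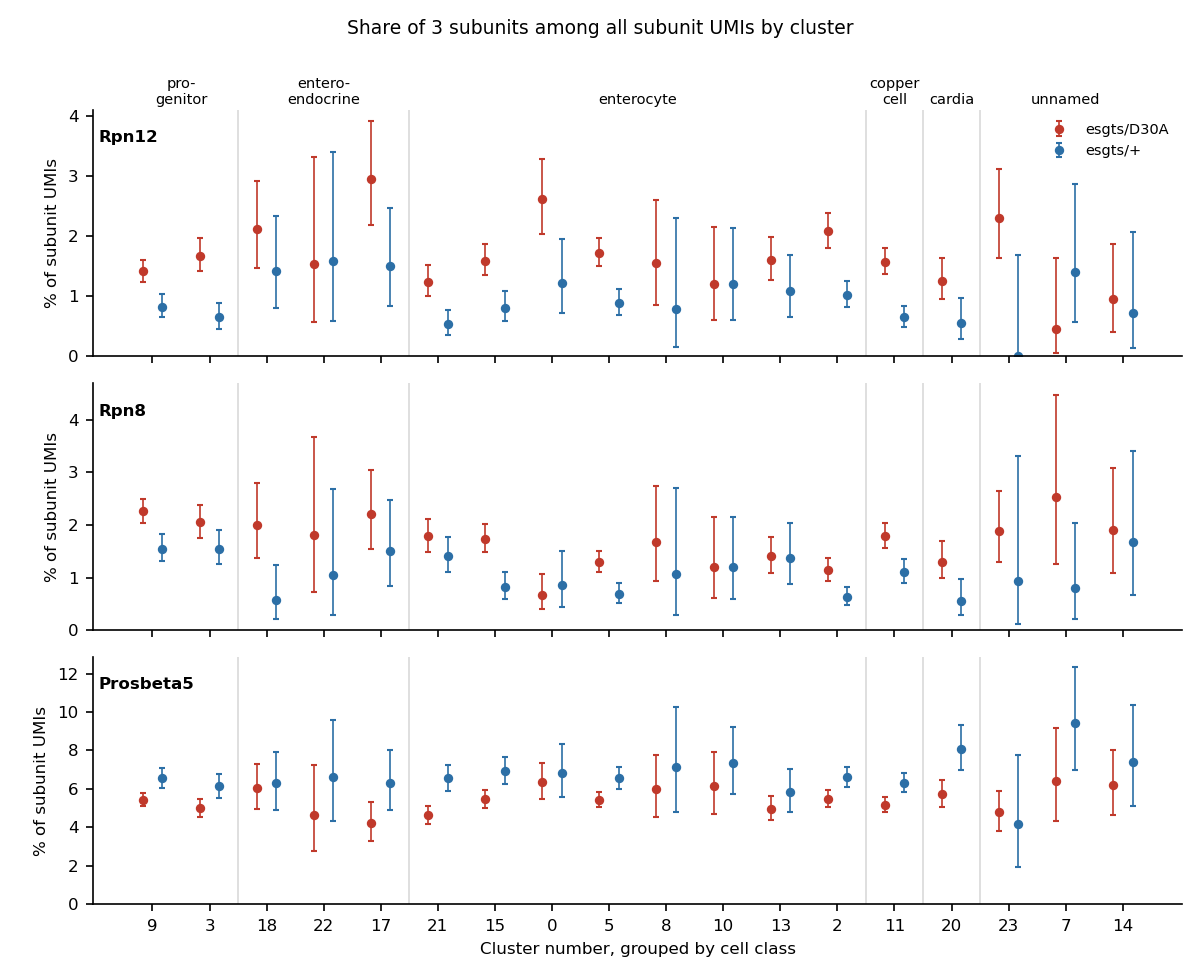
Percentage of all canonical subunit UMIs taken by Rpn12, Rpn8 and Prosbeta5 (y axis, 1 panel each) in the 18 clusters with at least 200 subunit UMIs in each library (x axis), with D30A in red, control in blue and exact 95% intervals. Rpn12 is higher in D30A in 16 of 18 clusters, Rpn8 in 17, and Prosbeta5 is lower in D30A in 17. The clusters are parts of the same libraries and not replicates.

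These shares were also read by cluster, for no other subunits. The clusters are parts of the same libraries and the same UMIs. Their counts describe how the class ratios spread over clusters and are not separate support for them. Of 18 clusters with at least 200 subunit UMIs in both libraries, the Rpn12 share was higher in D30A in 16, and in 8 of these the intervals of the libraries did not meet. The Rpn8 share was higher in D30A in 17 clusters, with 7 apart, and the Prosbeta5 share lower in D30A in 17, with 8 apart. By contrast, the summed subunit CPM was higher in D30A in only 6 of the 18 clusters. When cells were thinned to 650 UMIs each, too few counts were left in progenitors to read these ratios, with 8 Rpn12 UMIs in each library and 9 Rpn8 UMIs in D30A against 13 in control, and the Rpn8 ratio of shares then had the opposite sign (-0.41).

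Among the 20 pathway genes, TER94, the ATPase that extracts ubiquitinated proteins for the proteasome, was higher in D30A in progenitors, enteroendocrine cells and enterocytes. It had 78.2 CPM in D30A progenitors against 41.7 CPM in control progenitors, 158 against 85.4 CPM in enteroendocrine cells and 107 against 40.7 CPM in enterocytes. Npl4, an adaptor of that ATPase, had 15.7 CPM in D30A enterocytes and 8.32 CPM in control enterocytes, and PI31, a binding protein of the 20S core, had 29.2 and 17.2 CPM there. Pomp was level in enterocytes (122 CPM in D30A and 120 CPM in control) and lower in D30A progenitors, at 92.6 CPM against 112 CPM in control. Beyond 1.5-fold, 3 pathway genes were higher (TER94, PI31 and Pngl) and 1 lower in progenitors, 4 were higher (TER94, Npl4, PI31 and Rad23) and 0 lower in enteroendocrine cells, and 6 were higher and 0 lower in enterocytes. Of all genes 20.2%, 16% and 37.3% were higher in these classes and 6.47%, 12.7% and 2.35% were lower. The list as a whole therefore did not stand out by its counts. The 1 lower gene was the stress-response factor Xrp1, with 758 CPM in D30A progenitors and 1166 CPM in control progenitors.

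Most cells had at least 1 subunit transcript. At full depth 98.7% of D30A progenitors and 96.9% of control progenitors had one, 98.0% and 98.7% of enteroendocrine cells, and 90.4% and 87.4% of enterocytes. The median number of different subunits found per cell was 18 in D30A progenitors and 13 in control progenitors, 16 and 12 in enteroendocrine cells, and 3 and 2 in enterocytes, at median depths of 17225 and 9977, 8019 and 4767, and 1301 and 1050 UMIs. After thinning each cell to 650 UMIs, which left out 13 control progenitors and 462 control enterocytes, the shares were 63.4% (59.2 to 67.4) and 68.3% (64.3 to 72.2) in progenitors, 80.4% (73.2 to 86.4) and 85.9% (79.4 to 90.9) in enteroendocrine cells, and 71.5% (69.6 to 73.3) and 71.1% (69.1 to 73.1) in enterocytes. At that depth the progenitor marker esg was found in 1.69% of D30A enterocytes and 1.15% of control enterocytes. Whether this came from free RNA or from the cells themselves was not tested.

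The testis-type paralogs were nearly silent. All 15 together had 31 UMIs in D30A (0.634 CPM, 0.431 to 0.900) and 16 in control (0.536 CPM, 0.306 to 0.8702), against 41342 and 25537 UMIs for their 11 canonical partners, and made up 0.0749% and 0.0626% of the UMIs of both kinds. In all, 9 of the 15 had at least 1 UMI. Rpt3R had 12 UMIs in D30A and 6 in control, 10 and 4 of them in enterocytes, and Rpn13R had 12 UMIs in D30A and 2 in control, of which 8 and 1 were in enterocytes. Rpn13R is overlapped on its own strand by CG15465 and rg, so its UMIs cannot be told apart from theirs. Rpn12R had 2 UMIs in D30A and 3 in control, all in enteroendocrine cells, and it too is overlapped on its own strand, by Sytbeta.

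The remaining paralogs were at single counts. Prosbeta2R2 had 2 UMIs in D30A and 1 in control, Prosalpha4T2 had 2 UMIs in D30A, Rpt4R had 1 UMI in D30A, and Rpt6R had 2 UMIs in control. Prosalpha3T and Prosalpha6T had 1 UMI each in control, both in progenitors. The other 6 genes, Prosalpha4T1, Prosbeta2R1, Prosbeta4R1, Prosbeta4R2, Prosbeta5R1 and Prosbeta5R2, had no UMI in either library, which allows up to 0.0614 CPM in D30A and 0.1005 CPM in control. In these female guts, 13 of 16 testis markers were at 0 in each library, and the list summed to 21 UMIs in D30A and 11 in control.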

How the data were processed

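Whole-number UMI counts of each gene in each barcode were deposited; the authors obtained them with Cell Ranger 3.0 (3.0.2 in the matrix header) and left them unnormalized. The submitters' notes list Seurat 3.1.1 as well. The genome build used for counting is not given in the sources used here. Positions were looked up by FlyBase identifier in BDGP6.54 (Ensembl release 115). The D30A library had 6322 barcodes and 53275921 UMIs, and the control library 4242 barcodes and 30383272 UMIs.

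Cells needed 200 genes and no more than 25% of UMIs from mitochondria. Doublets were taken as the top Scrublet scores (scanpy 1.11.5), 0.8% per 1000 barcodes, which removed 218 D30A and 140 control barcodes. Integration and clustering used Seurat 5.3.0 under R 4.3.3 (2000 variable genes chosen without the reported genes, 30 dimensions, resolution 0.8). A class name required 3 of its markers, each in 10% of the cluster's cells and 1.5-fold above the rest, and was withheld where another class had more markers among the 10 top genes or where depth was low. Subunit UMIs were summed per class and library and scaled to CPM. Intervals are exact at 95% (Poisson for levels, conditional binomial for ratios, Clopper-Pearson for shares), and 0 counts were read as up to 3. Correlations used log2 of CPM plus 1. The calculations were tested on simulated data.

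The named subunits are all canonical ones in progenitors, the 3 highest and 3 lowest D30A over control ratios of each class at 200 UMIs or more, paralogs with a UMI, and the 10 genes most like the summed subunits. The members and lists were chosen with earlier results of these data known. The clusters, shares of subunit UMIs, extreme enteroendocrine ratios and single pathway genes given with values were picked after their values had been seen. Alternatives covered cell filters, doublets, integration, clustering resolution, scaling, thinning, gene minimums, fold thresholds, shared barcodes and classes from single transcripts. Of these, 3 were chosen after seeing the data: a total without ribosomal and mitochondrial genes, enterocytes without clusters of over 80% from 1 library, and classes without their deepest cell.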

Additional observations from a re-analysis of the deposited data

How the results depend on the processing

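No paired analysis was possible because each genotype had 1 library. Ratios between classes depended on the scale. With median-of-ratios scaling the subunit medians (D30A, then control) were -0.50 and -0.42 for progenitor over enterocyte, -0.43 and -0.42 for enteroendocrine over enterocyte, and -0.093 and -0.19 for enteroendocrine over progenitor cells, so that the last 2 pairs, and progenitor over enterocyte in control, turned sign. D30A over control was then -0.26 in progenitors and, with a turned sign, -0.26 in enterocytes. With cells weighted equally, progenitor over enterocyte was -0.34 and, with a turned sign, -0.27, enteroendocrine over enterocyte 0.34 in D30A, and D30A over control in enterocytes -0.013, also with a turned sign. With classes taken from single transcripts, progenitor over enterocyte was 0.16 (a turned sign) and 0.41, enteroendocrine over progenitor 0.34 and 0.26, and D30A over control in enteroendocrine cells -0.044. With thinned cells, progenitor over enterocyte was -0.30 and -0.14, the control value with a turned sign. Without ribosomal and mitochondrial genes in the total, a choice made after seeing the data, the medians were 0.64 (a turned sign) and 1.06 for progenitor over enterocyte, 0.33 for enteroendocrine over enterocyte in D30A, and -0.39 and -0.41, both with a turned sign, for enteroendocrine over progenitor cells.

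The excess of the 19S share in enteroendocrine over progenitor cells stayed positive but was 3.75 points in D30A with cells weighted equally, 1.21 (D30A) and 3.95 (control) with single-transcript classes, and 4.19 and 1.59 with thinned cells. The Rpn8 share ratio in progenitors turned to -0.41 with thinned cells, which rests on 9 and 13 UMIs, and the Rpn12 ratio there was 0.12, from 8 UMIs in each library. The Prosbeta5 share ratio in enterocytes was -0.15 with cells weighted equally and -0.035 with thinned cells. Counts of subunits past the fold between the libraries were small and moved. In progenitors 2 were higher with cells weighted equally and 0 at 2-fold, and 2 were lower with median-of-ratios scaling, 1 at a minimum of 1 UMI and 3 with thinned cells. In enteroendocrine cells 2 were higher with median-of-ratios scaling or without the deepest cell, and 0 with cells weighted equally, single-transcript classes or at 2-fold. There, 5 were lower without doublet removal, 6 with cells weighted equally, 1 with single-transcript classes, 0 at 2-fold and 7 without ribosomal and mitochondrial genes. In enterocytes 1 was higher with median-of-ratios scaling and at 2-fold, and 1 was lower with median-of-ratios scaling and at a minimum of 1 UMI.

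Requiring 2 UMIs, the thinned shares of cells were 31.0% (D30A) and 33.6% (control) in progenitors, 52.3% and 61.5% in enteroendocrine cells, and 40.0% and 38.2% in enterocytes. The cause of these changes was not tested. Depth limits the ratios in enteroendocrine cells, where most subunits had under 200 UMIs, and the levels of the paralogs.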
